A study of Mus musculus with 14 samples.

Results

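RNA sequencing of LK cells (Lin-c-kit+), the myeloid progenitor fraction of mouse bone marrow, was analysed for 5 of the 14 libraries of the study, namely all those whose labels name the LK population. Of these, 3 libraries came from mice given PBS and 2 from mice given IL-1β. Marrow of Mx1Cre mice with a heterozygous Jak2V617F allele (Jak2VF/+), induced with pI-pC, had been transplanted into lethally irradiated C57BL/6 hosts, so cells of the PBS controls carried the mutation as well. The hosts were injected intraperitoneally with PBS or with IL-1β at 0.5 µg per dose, 3 doses per week, for 16 weeks, and LK cells were then sorted. Mx1Cre acts in blood cells and in other cells that respond to interferon, whereas the stroma around the graft was that of the host. The study states that mice 6 to 8 weeks old, matched for age and sex, were used. Injections began some weeks after transplantation and then ran for 16 weeks, so the hosts were older when LK cells were sorted. Whether marrow was pooled is not given in the sources used here, so p-values measure only the spread between these libraries, which may be technical. The comparison addresses how chronic IL-1β changes gene expression in Jak2-mutant myeloid progenitors.

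LK cells hold the progenitors of granulocytes, monocytes, mast cells, basophils, eosinophils, red cells and megakaryocytes. IL-1β acts through the receptor pair Il1r1 and Il1rap, which signals by Myd88 and IRAK kinases to NF-kB. In granulocyte progenitors the factors Cebpa, Cebpe and Gfi1 drive the synthesis of granule proteins, while Irf8 directs cells to the monocyte and dendritic fates and Gata1 with Klf1 to the red cell fate. In a bulk sample, fewer cells of a type and less RNA per cell cannot be told apart.

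Sequencing depth moved with treatment, since 12804883 to 18544346 pairs were counted per PBS library but 7652483 and 6367352 per IL-1β library. After removal of genes with few counts, 12835 genes were tested with edgeR. Calls required a Benjamini-Hochberg adjusted p below 0.05 together with a change larger than 0.5 in either direction on the log2 scale. By this rule 869 genes were higher with IL-1β, 6.77% of those tested, and 330 were lower, 2.57%. The median log2 fold change of all genes was -0.03, and both IL-1β libraries lay above all PBS libraries for 23.5% of genes and below them for 22.2%. The first principal component held 60% of the variance and placed PBS replicate 3 (-0.27) nearer to the IL-1β libraries (0.61 and 0.48) than PBS replicates 1 (-0.41) and 2 (-0.40). PBS replicate 1 held 4.75% of its counts on 3 genes that collect reads of ribosomal RNA sequence, against 0.0924% to 0.356% in the others. PBS replicate 2 stood apart in immediate early genes, with Fos, a subunit of AP-1, at 3.73, 135 and 21.1 CPM with PBS and at 12.6 and 5.45 CPM with IL-1β (CPM, read counts scaled to library size with TMM factors). The part of these differences in the results was not tested.

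The calls rested on single libraries to a large degree. Without IL-1β replicate 1, 61 genes were called higher and 5 lower, and without IL-1β replicate 2 the counts were 268 and 63. Leaving out PBS replicate 1 gave 502 and 125, PBS replicate 2 gave 449 and 154, and PBS replicate 3 gave 1499 and 910. Where only 1 IL-1β library was left, it was assumed to vary like the PBS libraries. In every one of the 11 alternative settings 59 of the 869 higher and 5 of the 330 lower genes were called, and no gene called here was called in the opposite direction in any of them.

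**Figure D1:**
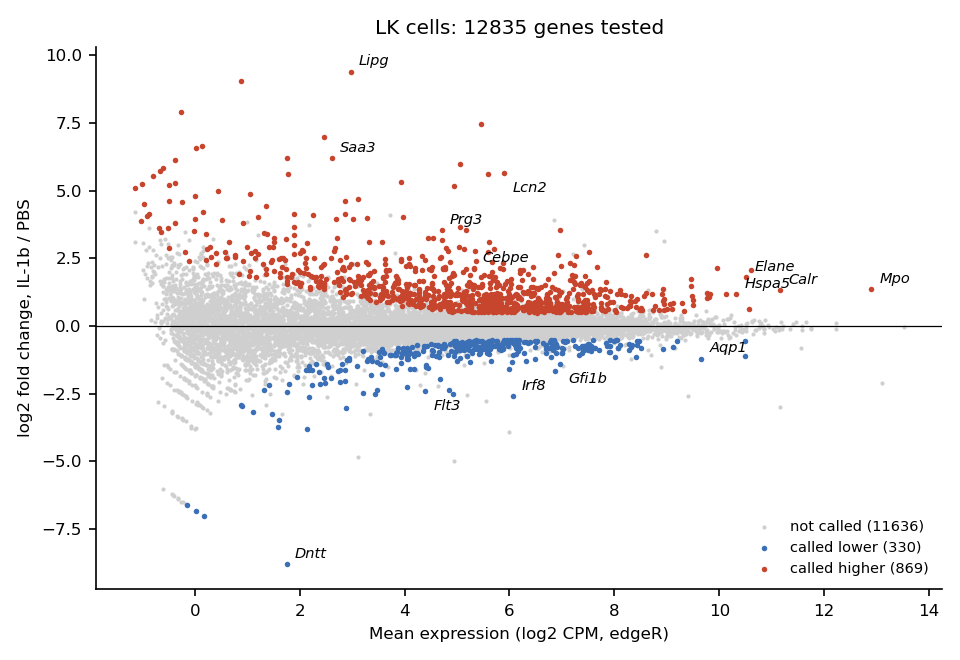
Log2 fold change of IL-1β over PBS (vertical axis) against mean expression in log2 CPM (horizontal axis) for each of the 12835 genes tested in LK cells, with the 869 genes called higher in red, the 330 called lower in blue and the rest in grey. Mpo is the most abundant gene called, Lipg has the largest fitted rise, and Dntt, at 0 counts in both IL-1β libraries, the largest fitted fall.

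**Figure D2:**
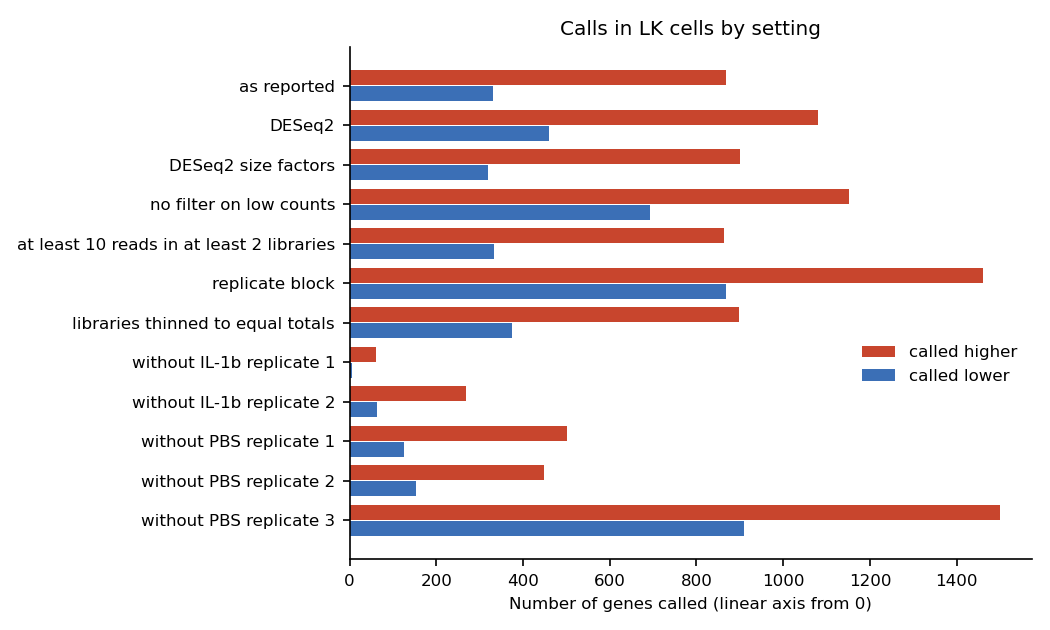
Number of genes called higher (red bars) and lower (blue bars) in LK cells as reported and under each alternative, on a linear axis from 0. Calls ranged from 61 and 5 without IL-1β replicate 1 to 1499 and 910 without PBS replicate 3.

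The sorted population matched its label. Kit, the receptor that defines the gate, was at 292, 298 and 341 CPM with PBS and at 365 and 295 CPM with IL-1β, and did not pass the test (0.09 ± 0.12, adjusted p = 0.706); such values in parentheses are the log2 fold change of IL-1β over PBS ± SE and edgeR's adjusted p. Ly6a, which encodes the Sca1 antigen of LSK cells, was at 0.257 to 0.787 CPM with PBS and at 1.99 and 0.642 CPM with IL-1β in LK cells and at 27.5, 42.1 and 32.4 CPM and at 15.2 and 26.5 CPM in LSK cells with PBS and IL-1β. Jak2 stood at 79.0, 80.9 and 84.3 CPM with PBS and at 85.2 and 80.2 CPM with IL-1β (0.02 ± 0.10, adjusted p = 0.909), and counts per gene do not separate the mutant from the normal allele. Within the list of gate genes, 9 of 10 were tested, with 2 called higher and 2 lower, beside 6.77% and 2.57% over all genes. Flt3, the receptor of lymphoid and dendritic progenitors, was at 27.7, 25.5 and 36.9 CPM with PBS and at 7.55 and 3.69 CPM with IL-1β (-2.39 ± 0.32, adjusted p = 0.00518), and this call held in every alternative. Fcgr3, an Fc receptor high on granulocyte-monocyte progenitors, rose from 20.3, 21.3 and 34.7 CPM to 106 and 72.3 CPM (1.82 ± 0.27, adjusted p = 0.0105), a call lost without IL-1β replicate 1. The other calls were Fcgr2b, an inhibitory Fc receptor, which was higher (1.81 ± 0.32, adjusted p = 0.0201), and Eng, a coreceptor of TGF-β, which was lower (-0.60 ± 0.10, adjusted p = 0.00906), both lost without either IL-1β library and the first also without PBS replicate 2. Cd34, at 126 to 227 CPM with PBS and at 127 and 116 CPM with IL-1β, did not pass the test.

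Markers of cells that the gate should remove were low. The 10 T and NK cell markers summed to 0.360 to 0.954 CPM with PBS and to 0.398 and 0.481 CPM with IL-1β, and Cd3d, Cd3e, Cd3g and Trac had no counts. The 7 B cell markers summed to 7.30 to 12.1 CPM with PBS and to 14.4 and 14.6 CPM with IL-1β, with Ms4a1, Pax5 and Fcer2a at 0 counts. The 10 macrophage markers summed to 15.2 to 17.0 CPM with PBS and to 37.6 and 28.6 CPM with IL-1β. Of the 8 macrophage markers tested 1 was called, Vcam1, an adhesion molecule, which was at 2.31, 2.73 and 8.59 CPM with PBS and at 29.1 and 21.5 CPM with IL-1β (2.49 ± 0.56, adjusted p = 0.0402) and was lost without either IL-1β library and without PBS replicate 1 or 2. The complement gene C1qb, which marks macrophages more closely, was at 1.07 to 3.26 CPM with PBS and at 0.927 and 1.44 CPM with IL-1β and overlapped between the groups. The 10 stromal and endothelial markers summed to 22.2 to 28.9 CPM with PBS and to 29.8 and 15.4 CPM with IL-1β, Cdh5 was at 0 counts, and neither of the 2 that were tested was called by edgeR or DESeq2, nor was either at an unadjusted p under 0.05.

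Genes of primary granules, the first granules made by granulocyte progenitors, rose together. All 9 listed genes passed the count filter and 8 were called higher, with a median log2 fold change of 1.80, beside 6.77% called higher and a median of -0.03 over all genes. The list summed to 4943, 6121 and 10464 CPM with PBS and to 23827 and 20230 CPM with IL-1β. PBS replicate 3 was the highest of the controls. For all 9 genes both IL-1β libraries lay above all PBS libraries, beside 23.5% over all genes. Mpo, the myeloperoxidase of azurophil granules, was at 3189, 3993 and 6840 CPM with PBS and at 12955 and 11309 CPM with IL-1β (1.38 ± 0.31, adjusted p = 0.0404). Elane, neutrophil elastase, was at 445, 659 and 1096 CPM and at 2756 and 2350 CPM (1.80 ± 0.37, adjusted p = 0.0374). Ms4a3, a membrane protein of granulocyte-monocyte progenitors, showed the largest fitted rise of the list, from 93.8, 112 and 176 CPM to 886 and 684 CPM (2.63 ± 0.28, adjusted p = 0.00518). Cd63, a tetraspanin of granule membranes, was at 74.1, 72.6 and 109 CPM with PBS and at 454 and 318 CPM with IL-1β (2.18 ± 0.23, adjusted p = 0.0044), and was the gene of the list that was called in every alternative. Prtn3 and Ctsg, serine proteases, Srgn, the proteoglycan that packs granule proteases, and Cst7, a cysteine protease inhibitor, rose as well (2.08 ± 0.31, 2.13 ± 0.35, 1.72 ± 0.26 and 1.74 ± 0.24). Ctsc, the protease that activates granule proteases, was at 24.9, 23.3 and 38.9 CPM and at 48.6 and 49.6 CPM and did not pass the test (0.76 ± 0.22, adjusted p = 0.0721). Of the 8 calls, 1 held without IL-1β replicate 1, 4 without IL-1β replicate 2, 7 without PBS replicate 1 and 4 without PBS replicate 2.

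Genes of later granules were lower in level and uneven. Of 17 listed genes 13 were tested and 7 were called higher. For 8 of the 13, fewer than 2 PBS libraries reached the level of the count filter, so they were tested only because of the IL-1β libraries and could hardly have been called lower, among them the called genes Chil3, S100a9, Cd177 and Itgb2l. Of the 5 others, 3 were called higher (Lcn2, S100a8 and Pglyrp1, a peptidoglycan-binding protein), beside 6.77% over all genes. Lcn2, the siderophore-binding protein lipocalin 2, was at 3.02, 1.85 and 4.15 CPM with PBS and at 174 and 120.5 CPM with IL-1β (5.65 ± 0.31, adjusted p = 5.4e-04). S100a8, one chain of calprotectin, was at 2.31, 2.26 and 2.79 CPM and at 153 and 85.5 CPM (5.61 ± 0.28, adjusted p = 2.6e-04). Both were called in every alternative. Cd177, a neutrophil surface protein, was at 0.556, 0.617 and 1.15 CPM and at 26.2 and 11.4 CPM (4.60 ± 0.47, adjusted p = 0.002). Chil3, a chitinase-like secreted protein with near copies in the genome, was at 1.59, 0.103 and 0.429 CPM with PBS and at 155 and 67.2 CPM with IL-1β (7.45 ± 0.79, adjusted p = 0.0102), a call lost without IL-1β replicate 1 and without PBS replicate 3. Itgb2l, an integrin chain, had 1 count over the 3 PBS libraries, and the pooled ratio of IL-1β to PBS was 157 with an exact 95% counting interval of 26.8 to 6328, which covers counting error only. Ltf, the iron-binding lactoferrin of secondary granules, was at 2.15, 0.257 and 0.215 CPM and at 18.3 and 4.01 CPM and did not pass the test (3.75 ± 1.08, adjusted p = 0.0918). Camp, a cathelicidin, overlapped between the groups (adjusted p = 0.238), and Lyz2, lysozyme of mature myeloid cells, was at 40.1, 31.6 and 61.8 CPM and at 35.9 and 26.9 CPM (-0.50 ± 0.30, adjusted p = 0.36). S100a9, the other calprotectin chain, was at 3.42, 0.360 and 0.572 CPM and at 119 and 48.3 CPM (5.97 ± 0.96, adjusted p = 0.0362), and was not called without either IL-1β library or without PBS replicate 2 or 3. PBS replicate 1 was the highest control for Ltf, Camp, Chil3 and S100a9. Of the 7 calls, 3 held without IL-1β replicate 1, 5 without IL-1β replicate 2, 6 without PBS replicate 1, 5 without PBS replicate 2 and 5 without PBS replicate 3.

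**Figure D3:**
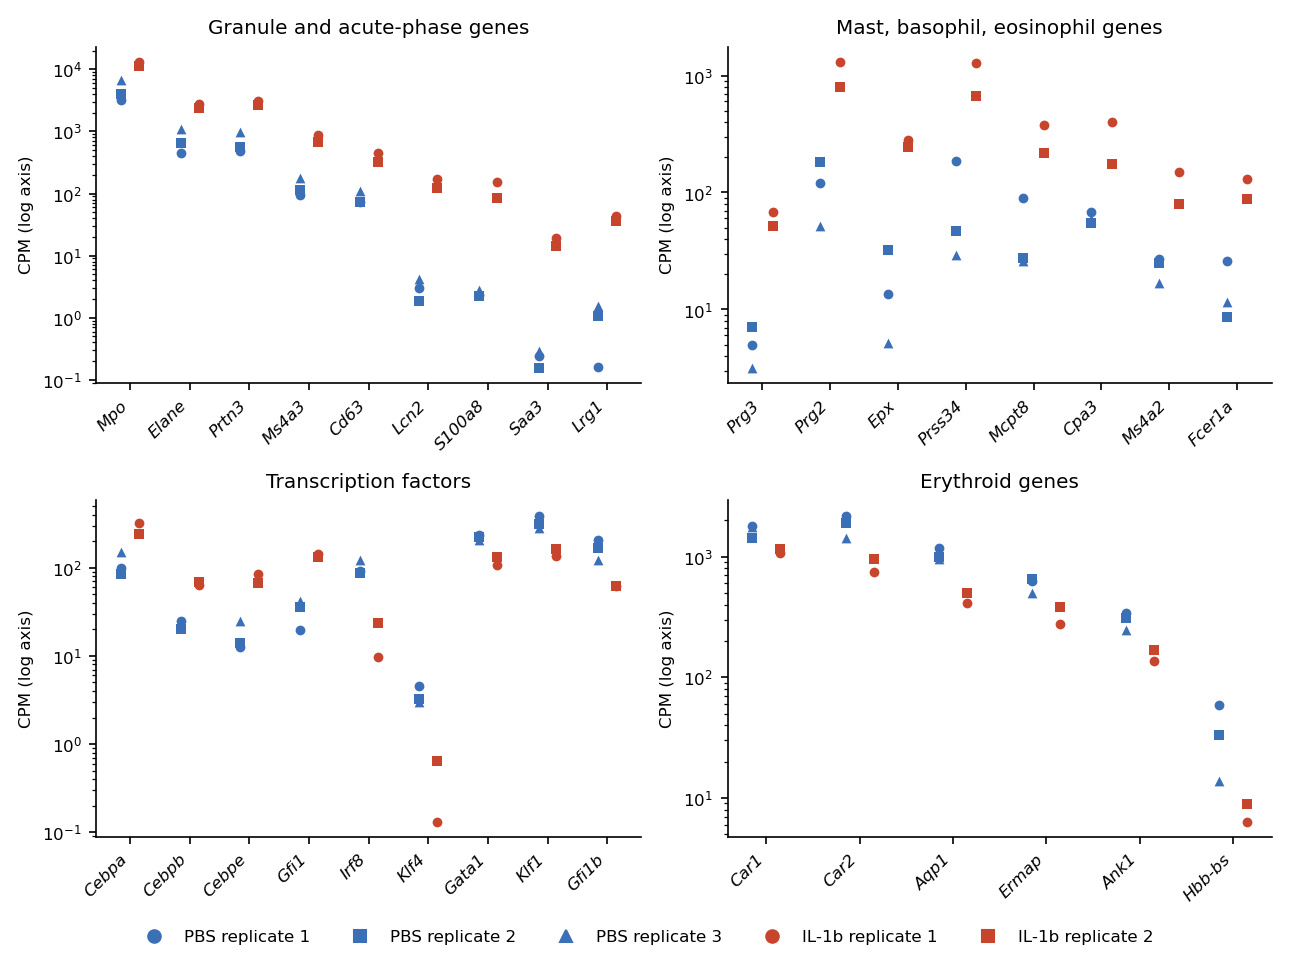
CPM on log axes for single genes in each of the 3 PBS libraries (blue) and 2 IL-1β libraries (red) of LK cells, with the symbol shape giving the replicate number. Granule, acute-phase, mast cell and eosinophil genes lie higher with IL-1β, Irf8, Klf4, Gata1, Klf1 and Gfi1b lie lower, and the beta globin gene Hbb-bs spreads widely among the PBS libraries and did not pass the test.

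Several acute-phase genes were called higher, and other textbook targets of NF-kB were not. Of 22 listed genes 19 were tested, 6 were called higher and 1 lower, and the median log2 fold change was 0.13. Saa3 and Il1r2 reached the level of the count filter in fewer than 2 PBS libraries. Of the 17 others, 4 were called higher and 1 lower, beside 6.77% and 2.57% over all genes, and their median was 0.08. Saa3, a serum amyloid A protein, was at 0.238, 0.154 and 0.286 CPM with PBS and at 19.5 and 14.4 CPM with IL-1β (6.21 ± 0.38, adjusted p = 2.6e-04). Lrg1, a secreted leucine-rich glycoprotein, was at 0.159, 1.08 and 1.57 CPM and at 42.8 and 35.5 CPM (5.33 ± 0.52, adjusted p = 0.00345). Hp, haptoglobin, rose by 2.74 ± 0.44 (adjusted p = 0.028), Il1r2, the decoy receptor of IL-1, by 5.00 ± 0.79 (adjusted p = 0.00779), and Bcl3 and Irak3, an NF-kB cofactor and a brake on IRAK signalling, by 1.47 ± 0.25 and 1.19 ± 0.21 on the log2 scale. Nfkbia, the inhibitor that NF-kB induces, was at 20.8, 28.7 and 31.3 CPM with PBS and at 34.5 and 22.1 CPM with IL-1β, overlapping between the groups (0.07 ± 0.24, adjusted p = 0.881). Tnfaip3, a deubiquitinase that ends NF-kB signalling, was at 7.07, 10.0 and 10.1 CPM and at 12.3 and 6.26 CPM (0.04 ± 0.33, adjusted p = 0.952). Tnfaip2, a gene induced by TNF, was called lower, from 361, 404 and 376 CPM to 189 and 224 CPM (-0.88 ± 0.11, adjusted p = 0.00414). Without IL-1β replicate 1, Saa3 alone of the 7 calls held. Without IL-1β replicate 2 there were 4 of them, without PBS replicate 1 6 and without PBS replicate 2 5.

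Promoters of called genes from the granule, acute-phase and erythroid lists are printed to show the stretch before the start site of genes whose levels are described here. They are the 250 bases before the RefSeq start site (GRCm38.p6), 5′ to 3′ on the strand of the gene, and lie within 500 bases of the annotated gene start. Capitals mark matches, on either strand, to a C/EBP motif (TTGCNNAA), a GATA motif (GATAAG), a KLF motif (CCNCNCCC) or the kappaB consensus.
Saa3, chr7:46715677-46715926, minus strand: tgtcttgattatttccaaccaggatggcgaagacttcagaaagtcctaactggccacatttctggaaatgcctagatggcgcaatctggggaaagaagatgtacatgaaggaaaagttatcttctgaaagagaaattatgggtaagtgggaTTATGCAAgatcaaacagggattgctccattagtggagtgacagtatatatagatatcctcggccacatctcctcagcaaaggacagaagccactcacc
Lrg1, chr17:56121947-56122196, minus strand: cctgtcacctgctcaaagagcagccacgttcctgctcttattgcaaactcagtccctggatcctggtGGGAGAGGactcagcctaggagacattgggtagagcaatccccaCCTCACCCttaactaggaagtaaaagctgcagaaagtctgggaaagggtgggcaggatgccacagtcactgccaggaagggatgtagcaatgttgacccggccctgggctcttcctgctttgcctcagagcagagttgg
S100a8, chr3:90668821-90669070, plus strand: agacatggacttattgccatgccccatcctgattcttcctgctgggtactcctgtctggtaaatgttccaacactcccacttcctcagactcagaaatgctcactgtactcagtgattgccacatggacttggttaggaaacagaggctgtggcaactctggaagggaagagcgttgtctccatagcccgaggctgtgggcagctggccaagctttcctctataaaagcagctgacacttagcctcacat
Ms4a3, chr19:11640852-11641101, minus strand: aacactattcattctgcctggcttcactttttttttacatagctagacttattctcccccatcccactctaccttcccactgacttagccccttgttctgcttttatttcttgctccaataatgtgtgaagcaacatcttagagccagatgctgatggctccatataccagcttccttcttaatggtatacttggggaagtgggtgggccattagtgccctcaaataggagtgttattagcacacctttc
Cst7, chr2:150570165-150570414, plus strand: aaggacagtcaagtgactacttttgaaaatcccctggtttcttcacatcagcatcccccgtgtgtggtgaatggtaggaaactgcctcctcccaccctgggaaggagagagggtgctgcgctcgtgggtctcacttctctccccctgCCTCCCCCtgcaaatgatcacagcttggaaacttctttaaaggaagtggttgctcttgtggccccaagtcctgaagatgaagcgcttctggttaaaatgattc
Aqp1, chr6:55336049-55336298, plus strand: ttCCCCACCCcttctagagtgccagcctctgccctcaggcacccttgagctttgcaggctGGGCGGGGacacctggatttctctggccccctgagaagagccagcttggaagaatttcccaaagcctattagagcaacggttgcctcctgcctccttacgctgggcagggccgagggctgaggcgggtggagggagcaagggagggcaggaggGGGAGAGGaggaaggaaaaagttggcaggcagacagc
The Saa3 window holds a C/EBP match that begins 99 bases before the start, the Aqp1 window 3 KLF matches, the Lrg1 window 2 and the Cst7 window 1, and those of S100a8 and Ms4a3 hold none of the 4 motifs. Over the 9523 tested genes with a promoter in the table, 7.33% held the C/EBP motif, 8.55% the kappaB consensus, 4.58% the GATA motif and 63.4% the KLF motif. Among the 676 genes called higher with a promoter the shares were 10.7%, 7.99%, 4.73% and 66.9%, and among the 260 called lower they were 7.69%, 11.9%, 5.77% and 71.9%. These shares describe letters in a short window and were not tested.

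Genes of mast cells, basophils and eosinophils, which store histamine, proteases and cationic proteins in their granules, included many that were higher. Of 18 listed genes 15 were tested, 10 were called higher and none lower. For 5 of those called (Ear1, Ear2, Ear6, Il5ra and Cd200r3) fewer than 2 PBS libraries reached the level of the count filter. Of the 10 others, 5 were called higher, beside 6.77% over all genes, both IL-1β libraries lay above all PBS libraries for 9, beside 23.5%, and the median log2 fold change was 2.75. The list summed to 587, 445 and 271 CPM with PBS and to 4220 and 2491 CPM with IL-1β. Prg3, an eosinophil granule protein, was at 5.01, 7.10 and 3.15 CPM with PBS and at 68.4 and 51.3 CPM with IL-1β (3.54 ± 0.31, adjusted p = 0.00149), a call that held in every alternative. Hdc, which makes histamine, went from 47.4, 52.0 and 65.2 CPM to 174 and 119.8 CPM (1.42 ± 0.19, adjusted p = 0.00562), and Ms4a2, the beta chain of the IgE receptor, from 27.1, 24.9 and 16.7 CPM to 149 and 79.2 CPM (2.32 ± 0.31, adjusted p = 0.00897). IL-1β replicate 1 was above IL-1β replicate 2 for both. Cpa3, a mast cell carboxypeptidase, Fcer1a, the alpha chain of the IgE receptor, and Il5ra, the IL-5 receptor of eosinophil progenitors, rose by 2.24 ± 0.34, 2.83 ± 0.51 and 2.54 ± 0.52 on the log2 scale. The basophil proteases Prss34 and Mcpt8 spread widely among controls, with PBS replicate 1 the highest, and did not pass the test. Prss34 was at 185, 47.0 and 29.0 CPM with PBS and at 1287 and 664 CPM with IL-1β (3.50 ± 1.05, adjusted p = 0.165), and Mcpt8 at 89.6, 27.3 and 26.1 CPM and at 380.5 and 217 CPM (2.66 ± 0.74, adjusted p = 0.135). The eosinophil genes Epx, a peroxidase, and Prg2, the major basic protein, did not pass it either, with values of 3.92 ± 0.80 (adjusted p = 0.073) and 3.15 ± 0.62 (adjusted p = 0.0641). Ear1, Ear2 and Ear6, ribonucleases with near-identical copies whose levels are therefore uncertain, were called with log2 fold changes of 3.44, 3.22 and 3.96. Of the 10 calls, 2 held without IL-1β replicate 1, 4 without IL-1β replicate 2, 6 without PBS replicate 1, 8 without PBS replicate 2 and 8 without PBS replicate 3.

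The 6 genes of the phagocyte NADPH oxidase, the enzyme that makes superoxide, were all tested, with a median log2 fold change of 1.53. All were called higher, beside 6.77% over all genes. Cybb, the catalytic membrane subunit, was at 9.38, 8.12 and 16.2 CPM with PBS and at 66.5 and 48.0 CPM with IL-1β (2.35 ± 0.31, adjusted p = 0.00633). Ncf1, a cytosolic subunit, rose by 1.81 ± 0.26 and the small GTPase Rac2 by 1.19 ± 0.21 on the log2 scale. Among pattern-recognition, lectin and Fc receptors, 17 of 21 listed genes were tested, with a median of 1.31. The 5 called higher were Tlr4, Trem1, Trem3, Clec5a and Clec4e, again beside 6.77% over all genes. Clec5a, a lectin receptor that signals through an adaptor of the Tyrobp type, was at 4.21, 3.65 and 11.4 CPM with PBS and at 61.4 and 54.7 CPM with IL-1β (3.19 ± 0.49, adjusted p = 0.0164). Tyrobp itself was at 20.4 to 32.0 CPM and at 28.2 and 17.97 CPM (-0.10 ± 0.26, adjusted p = 0.851). Without PBS replicate 3 the receptors called higher were 10. Without IL-1β replicate 1 none of these 11 calls held. Without IL-1β replicate 2, 2 oxidase and 2 receptor calls held, without PBS replicate 1 the counts were 3 and 4, and without PBS replicate 2 they were 4 and 4.

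Of the 15 myeloid transcription factors listed, all were tested, 6 were called higher, 2 were called lower and 7 were not called. The shares over all genes were 6.77% higher and 2.57% lower. Cebpe, the factor of late granulocyte genes, was at 12.6, 13.9 and 25.1 CPM with PBS and at 85.5 and 66.9 CPM with IL-1β (2.15 ± 0.30, adjusted p = 0.00885). Gfi1, a repressor that favours granulocytes, went from 19.9, 35.9 and 41.7 CPM to 141 and 133 CPM (2.07 ± 0.28, adjusted p = 0.00957). Cebpb, the C/EBP factor of emergency granulopoiesis, went from 25.2, 20.3 and 24.5 CPM to 64.4 and 68.0 CPM (1.51 ± 0.14, adjusted p = 0.00128) and was called in every alternative. Cebpa, Cebpd and Spi1, which encodes PU.1, rose by 1.33 ± 0.26, 1.42 ± 0.21 and 1.35 ± 0.28 on the log2 scale. Irf8, needed for monocytes and dendritic cells, was at 91.9, 86.0 and 121 CPM with PBS and at 9.80 and 23.6 CPM with IL-1β (-2.59 ± 0.38, adjusted p = 0.0122), a call that also held in every alternative. Klf4, a monocyte factor, was at 4.53, 3.29 and 3.00 CPM and at 0.133 and 0.642 CPM (-3.25 ± 0.67, adjusted p = 0.0205). Klf4 reached the level of the count filter in fewer than 2 IL-1β libraries, so it was tested only because of the PBS libraries and could hardly have been called higher. Of these 8 calls, 2 held without IL-1β replicate 1, 4 without IL-1β replicate 2, and 5 without PBS replicate 1 or 2.

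All 21 listed JAK-STAT genes and cytokine receptors were tested, with a median of 0.02. Of these 5 were called higher and 3 lower, beside 6.77% and 2.57% over all genes. Csf2rb, the shared beta chain of the GM-CSF, IL-3 and IL-5 receptors, rose from 44.5, 52.0 and 64.6 CPM to 229 and 189.5 CPM (1.96 ± 0.16, adjusted p = 0.00104), a call that held in every alternative. Csf3r, the G-CSF receptor, was at 19.1, 43.5 and 40.1 CPM with PBS and at 144 and 126 CPM with IL-1β (1.97 ± 0.33, adjusted p = 0.0218). Csf1r, the receptor of monocytes, was at 36.2, 37.5 and 58.2 CPM and at 4.77 and 11.1 CPM (-2.49 ± 0.40, adjusted p = 0.0135), and Epor, the erythropoietin receptor that signals through Jak2, was at 182, 179 and 117 CPM and at 73.4 and 87.9 CPM (-0.98 ± 0.21, adjusted p = 0.0306). In these called receptors no IL-1β library overlapped the controls, which adds little to the calls themselves. The STAT5 target Cish was at 9.14, 10.3 and 10.6 CPM and at 8.74 and 6.90 CPM (-0.35 ± 0.24, adjusted p = 0.413), whereas Pim1, a kinase that STAT factors induce, rose by 0.77 ± 0.13 (adjusted p = 0.00905). In this list 1 of the 8 calls held without IL-1β replicate 1, 4 without IL-1β replicate 2 and 6 without any one of the PBS replicates.

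Some receptors and signalling genes of the IL-1 family were called. Of 25 listed genes 21 were tested, and the median was 0.04. Here 3 were called higher and 1 lower, beside 6.77% and 2.57% over all genes. Both IL-1β libraries lay above all PBS libraries for 9 and below them for 3, beside 23.5% and 22.2% over all genes. Il18rap, a chain of the IL-18 receptor, had the largest fitted rise of the list (2.21 ± 0.29, adjusted p = 0.00518). Il1r1, the signalling receptor, was at 5.01, 4.37 and 7.23 CPM with PBS and at 9.67 and 7.86 CPM with IL-1β, higher in both IL-1β libraries but not past the test (0.67 ± 0.31, adjusted p = 0.228). Il1rap, its partner chain, rose from 12.9, 13.1 and 16.8 CPM to 30.9 and 24.4 CPM (0.96 ± 0.20, adjusted p = 0.0205), and Myd88, the adaptor, by 0.50 ± 0.11 (adjusted p = 0.027). Rela, the p65 subunit of NF-kB, fell from 130.1, 125 and 123 CPM to 80.4 and 86.5 CPM (-0.60 ± 0.10, adjusted p = 0.00875). The ligand genes Il1a, Il1b and Il18 had too few counts to be tested. None of the 4 calls held without IL-1β replicate 1, 1 held without IL-1β replicate 2, 2 held without PBS replicate 1 or 2, and 7 genes of the list were called without PBS replicate 3.

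Genes of monocytes, dendritic cells and lymphoid progenitors were lower where they were called, apart from Lax1. Among 17 listed monocyte genes 15 were tested and 5 were called lower, none higher, with a median of -0.42. For this list and the next ones, the shares over all genes were 2.57% lower and 6.77% higher. Ly86, a partner of a Toll-like receptor homologue, fell from 9.78, 7.25 and 14.4 CPM to 0.662 and 1.93 CPM (-3.04 ± 0.52, adjusted p = 0.0113), and Ctss, a lysosomal protease of antigen-presenting cells, from 17.2, 11.4 and 17.0 CPM to 2.78 and 2.57 CPM (-2.49 ± 0.31, adjusted p = 0.00394). Ly86 reached the level of the count filter in fewer than 2 IL-1β libraries, so it was tested only because of the PBS libraries and could hardly have been called higher. F13a1, a monocyte transglutaminase, was at 92.2 to 156 CPM and at 135 and 106 CPM (0.07 ± 0.25, adjusted p = 0.894). For MHC class II and dendritic genes 10 of 16 were tested and 2 were called lower, Cd74, the invariant chain (-1.93 ± 0.42, adjusted p = 0.0243), and H2-Aa, a class II chain (-2.60 ± 0.66, adjusted p = 0.044). Among lymphoid genes 10 of 18 were tested, with 1 called higher and 2 lower. Dntt, the terminal transferase of lymphoid progenitors, was at 3.10, 4.94 and 5.94 CPM with PBS and at 0 and 0 CPM with IL-1β, at least 10.6-fold lower against a floor of 3 counts per library (adjusted p = 0.00518). It too was tested only because of the PBS libraries and could hardly have been called higher. Ighm, whose unrearranged locus is transcribed in early progenitors, fell from 37.9, 33.8 and 51.8 CPM to 8.88 and 7.22 CPM (-2.35 ± 0.24, adjusted p = 0.00186), which was called in every alternative. Lax1, a lymphoid adaptor, was called higher (2.85 ± 0.59, adjusted p = 0.0209) and reached the level of the count filter in fewer than 2 PBS libraries. Over these 3 lists 10 genes were called, and without IL-1β replicate 1 Ighm alone held. Without IL-1β replicate 2 2 monocyte, 0 dendritic and 2 lymphoid calls held, without PBS replicate 1 they were 4, 0 and 2, and without PBS replicate 2 3, 2 and 2. Without PBS replicate 3 the dendritic genes called lower were 4, and 2 lymphoid genes were called higher and 3 lower.

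Of the 15 listed megakaryocyte-erythroid transcription factors, all were tested, with a median of -0.40. In this list 6 were called lower, 1 was called higher and 8 were not called, beside 2.57% lower and 6.77% higher over all genes. Gata1, the master factor of the lineage, was at 233, 221 and 204 CPM with PBS and at 108 and 131 CPM with IL-1β (-0.88 ± 0.12, adjusted p = 0.00481). Its cofactor Zfpm1 fell from 482, 406 and 429.6 CPM to 179.9 and 214 CPM (-1.16 ± 0.12, adjusted p = 0.00198). Klf1, which activates globin and membrane genes, fell from 388, 316 and 284 CPM to 136 and 165 CPM (-1.13 ± 0.16, adjusted p = 0.00554), and Gfi1b, the paralogue of Gfi1 used by this lineage, from 208, 165 and 122 CPM to 61.5 and 62.2 CPM (-1.41 ± 0.22, adjusted p = 0.0113). Both IL-1β libraries lay below every control for these 4 called genes, which adds little to their calls. Tal1 and Ldb1, partners of Gata1 on DNA, fell by 0.70 ± 0.12 and 0.66 ± 0.13 on the log2 scale. Gata2, shared with mast cells and stem cells, was at 139 to 156 CPM and at 234 and 147 CPM and was not called (0.36 ± 0.18, adjusted p = 0.263), and Fli1, a megakaryocyte factor also used in other blood cells, was called higher (1.21 ± 0.24, adjusted p = 0.0214). Of the 7 calls, none held without IL-1β replicate 1, 3 without IL-1β replicate 2, 5 without PBS replicate 1 and 6 without PBS replicate 2.

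All 23 erythroid genes tested had negative log2 fold changes, with a median of -0.80, and 7 were called lower, beside 2.57% called lower over all genes. The list summed to 9546, 8096 and 6958 CPM with PBS and to 4379 and 5047 CPM with IL-1β. The called members were Car1 and Car2, carbonic anhydrases, Aqp1, a water channel, Ermap and Ank1, membrane and cytoskeletal proteins, Blvrb, a reductase of heme breakdown, and Sphk1, a sphingosine kinase. Aqp1 was at 1176, 997 and 954 CPM with PBS and at 411 and 496 CPM with IL-1β (-1.20 ± 0.14, adjusted p = 0.00305), and Car2 at 2179, 1909 and 1431 CPM and at 743 and 947 CPM (-1.12 ± 0.20, adjusted p = 0.0135). Globin genes spread widely among the controls. Hba-a1, an alpha globin with a near-identical copy, was at 99.9, 55.5 and 19.6 CPM with PBS and at 28.5 and 34.2 CPM with IL-1β (-0.90 ± 0.77, adjusted p = 0.548). PBS replicate 3 was its lowest library and PBS replicate 1 the highest. Heme synthesis and its transporters had all 12 listed genes tested and 3 called lower (Alad, Urod and Slc25a38), with a median of -0.47. Alas1, an enzyme of the first step of heme synthesis, lay outside the list and was called higher (1.34 ± 0.24, adjusted p = 0.0212). Of 20 megakaryocyte genes 15 were tested and 1 was called, Vwf, the platelet adhesion protein, which fell from 21.7, 20.7 and 29.1 CPM to 5.96 and 10.1 CPM (-1.58 ± 0.28, adjusted p = 0.0119). Pf4, a platelet chemokine, had a value of -1.63 ± 0.50 (adjusted p = 0.0861), and Itga2b, the CD41 antigen, was at 69.3 to 97.2 CPM and at 209 and 96.9 CPM (0.93 ± 0.34, adjusted p = 0.16). Leaving out IL-1β replicate 1 removed all 11 calls of the 3 lists. Without IL-1β replicate 2 3 erythroid calls and Vwf held, and without PBS replicate 1 or 2 there were 4 and 3 erythroid calls, 1 heme call and Vwf. The counts also moved up, with 20 erythroid, 8 heme and 4 megakaryocyte genes called lower without PBS replicate 3. DESeq2 called 12, 4 and 4 lower, and the replicate block 22, 8 and 5.

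**Figure D4:**
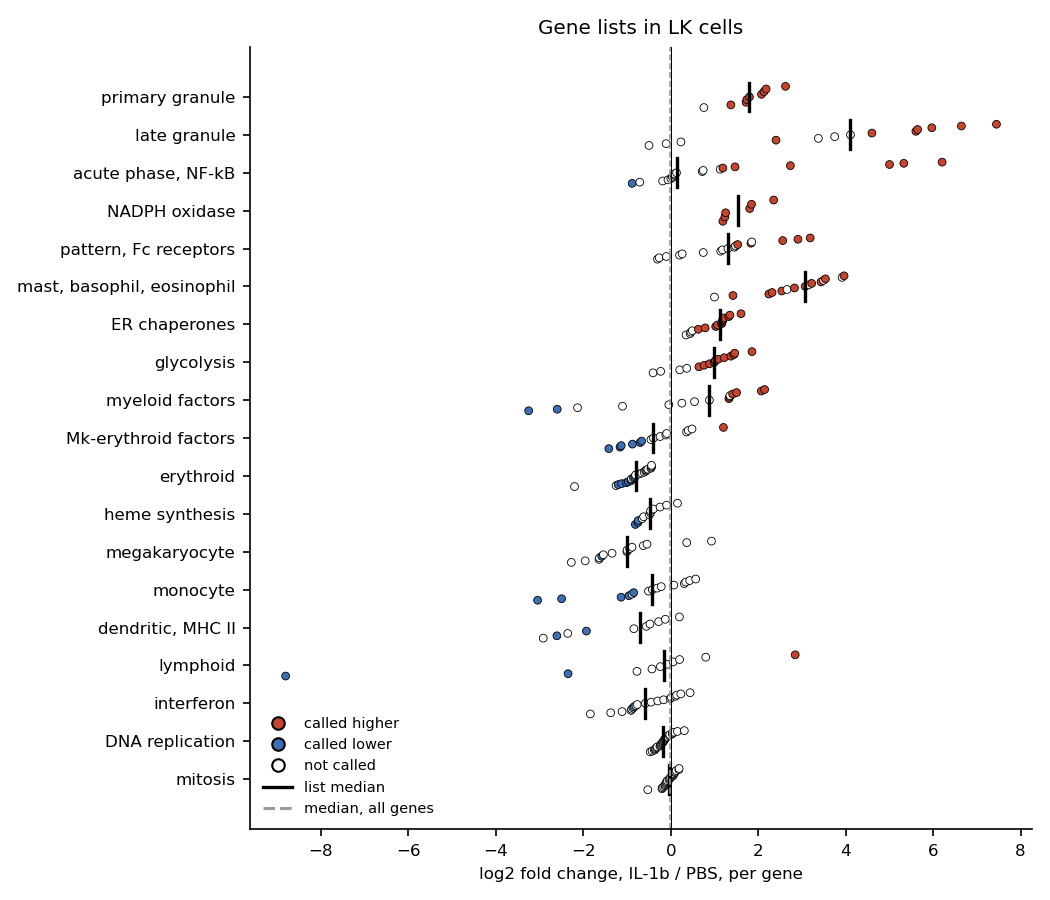
Log2 fold change of IL-1β over PBS in LK cells for each tested member of 19 gene lists (points), red where called higher, blue where called lower and white where not called, with a bar at each list's median and a dashed line at the median of all genes. The median was 1.80 for primary granule genes and -0.80 for erythroid genes. No gene of DNA replication or mitosis was called by edgeR in the fit plotted. Some points are of genes that reached the level of the count filter in fewer than 2 PBS libraries. These are 8 late granule, 5 mast cell, basophil or eosinophil, 2 acute-phase, 1 receptor and 1 lymphoid gene. Other points, among them Klf4, Ly86 and Dntt, are of genes that reached it in fewer than 2 IL-1β libraries.

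Chaperones of the endoplasmic reticulum, which fold secreted and granule proteins, included some of the most abundant genes that rose. All 16 listed genes were tested, and 16 lay above the PBS libraries in both IL-1β libraries (23.5% of all genes did). Calls numbered 12, all higher, beside 6.77% over all genes, and the median was 1.12. The list summed to 6227, 5022 and 6219 CPM with PBS and to 12490 and 12095 CPM with IL-1β. Calr, calreticulin, was at 1381, 1162 and 1732 CPM with PBS and at 3732 and 3427 CPM with IL-1β (1.33 ± 0.17, adjusted p = 0.00439), and Hspa5, the chaperone BiP, at 1056, 735 and 762 CPM and at 1902 and 1977 CPM (1.19 ± 0.16, adjusted p = 0.00548). Hsp90b1 and Hyou1, both lumenal chaperones, rose by 1.17 ± 0.12 and 1.17 ± 0.10 on the log2 scale and were called in every alternative. Xbp1, a factor that drives such genes once its RNA is spliced, was at 106, 90.5 and 85.7 CPM and at 291 and 246 CPM (1.51 ± 0.12, adjusted p = 7.7e-04), which also held in every alternative. Gene counts do not tell its spliced form. Of the 12 calls, 2 held without IL-1β replicate 1, 8 without IL-1β replicate 2, and 11 without PBS replicate 1 or 2.

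Most listed glycolysis genes rose as well. All 15 listed genes were tested and 11 were called higher, beside 6.77% over all genes, with a median of 1.00. The list does not hold every enzyme of the pathway. Outside it, Pfkm and Pklr, forms of phosphofructokinase and pyruvate kinase, were called lower (-0.82 ± 0.15, adjusted p = 0.0129, and -0.82 ± 0.16, adjusted p = 0.0181). Eno1, enolase, was at 557, 497 and 645 CPM with PBS and at 1344 and 1299 CPM with IL-1β (1.22 ± 0.13, adjusted p = 0.00175) and was called in every alternative. Gapdh, the dehydrogenase often used as a reference gene, was at 1185, 1082 and 1452 CPM and at 1958 and 1921 CPM (0.65 ± 0.14, adjusted p = 0.0238). Pkm, pyruvate kinase, was at 327, 308 and 614 CPM and at 1186 and 1111 CPM (1.46 ± 0.31, adjusted p = 0.0405), with PBS replicate 3 nearest to the IL-1β libraries. The hexokinases differed in value, with Hk2 and Hk3 called higher (1.02 ± 0.20 and 0.89 ± 0.19) and Hk1 at -0.23 ± 0.11 (adjusted p = 0.227). Of the 11 calls, 1 held without IL-1β replicate 1, 3 without IL-1β replicate 2, 9 without PBS replicate 1 and 5 without PBS replicate 2.

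Proliferation and translation genes showed few calls. None of 27 DNA replication genes and none of 22 mitosis genes was called by edgeR, beside 6.77% higher and 2.57% lower over all genes. The medians were -0.17 and -0.03. At an unadjusted p under 0.05 edgeR had 9 and 1, beside 3176 of all 12835 genes, while DESeq2 called 0 and 1. For 15 replication genes both IL-1β libraries lay below all PBS libraries, and for 1 above, beside 22.2% and 23.5% over all genes. Replication genes summed to 7564, 7421 and 7636 CPM with PBS and to 6482 and 7179 CPM with IL-1β. In the mitosis list 2 genes lay below and 2 above. Thinned to equal totals, edgeR called 1 gene lower in each list, and it called 1 mitosis gene lower without PBS replicate 3, with the replicate block and with no filter on low counts. Of 87 ribosomal protein genes tested 1 was called, Rps4l (4.80 ± 0.92, adjusted p = 0.0163), which reached the level of the count filter in fewer than 2 PBS libraries, and the median was -0.16. The 18 genes that the study grouped as Myc, mTORC1 and translation genes in LSK cells, a choice made on its own samples, had a median of 0.07 with 2 called higher, Xbp1 and Bcat1. Bcat1, an enzyme of branched-chain amino acid use, was at 0.715, 1.49 and 1.72 CPM with PBS and at 3.84 and 10.6 CPM with IL-1β (2.43 ± 0.55, adjusted p = 0.0283). Odc1, the first enzyme of polyamine synthesis, was at 815, 738 and 654 CPM and at 746 and 911 CPM (0.17 ± 0.13, adjusted p = 0.472), and Eif4a1, a translation helicase, was at 1458 to 1545 CPM and at 1687 and 1852 CPM (0.23 ± 0.11, adjusted p = 0.236). The listed interferon-stimulated genes had 19 of 25 tested and 1 called lower, Irf9, a subunit of the interferon-induced factor (-0.84 ± 0.17, adjusted p = 0.0181), with a median of -0.58, and without PBS replicate 3 there were 5 called lower and 1 higher. Among interferon-induced genes outside the list, Ifi203, Ifi209, Ifi30 and Pml were called lower, with log2 fold changes of -1.60, -2.47, -0.86 and -0.56. Ifitm1, also outside it, was called higher (2.64 ± 0.34, adjusted p = 0.0109). Of 13 stem cell genes tested, Hoxa9 was called higher (1.00 ± 0.20, adjusted p = 0.017) and Mllt3 lower (-0.98 ± 0.14, adjusted p = 0.00615). Of 15 chemokine and adhesion genes tested, Ccr1 and Itgb2 were called higher (2.50 ± 0.42 and 0.91 ± 0.21) and Nrp1 lower (-3.45 ± 0.55), and without PBS replicate 3 there were 7 called higher and 1 lower. None of 13 immediate early genes was called by edgeR, 2 were at an unadjusted p under 0.05 and DESeq2 called 1 lower, as did edgeR with the replicate block or after thinning (2 with no filter), with a median of -0.86, and PBS replicate 2 held the highest level of Fos, Fosb, Jun, Dusp1 and Zfp36. Of the calls in this group of lists, Xbp1 alone held without IL-1β replicate 1, and Xbp1, Ccr1 and Itgb2 alone held without IL-1β replicate 2. Those of Bcat1, Irf9 and Itgb2 were also lost without PBS replicate 1 or 2.

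The largest changes outside these lists, among genes with a mean of at least 1 log2 CPM, included genes with few counts in controls. Lipg, Psma8, Degs2 and Trnp1 reached the level of the count filter in fewer than 2 PBS libraries, so they were tested only because of the IL-1β libraries and could hardly have been called lower. Lipg, endothelial lipase, had 1 count over the 3 PBS libraries and was at 25.6 and 17.97 CPM with IL-1β, a pooled ratio of 1018 with an exact 95% counting interval of 181 to 40350. Psma8, a proteasome subunit known from testis, was at 0.0795, 0.257 and 0 CPM and at 7.55 and 12.5 CPM. Degs2, a sphingolipid enzyme, was at 0, 0.308 and 0.215 CPM and at 10.5 and 9.14 CPM. In Trnp1 the IL-1β libraries were far apart, at 28.4 and 1.76 CPM, and the call was lost without IL-1β replicate 1 or any one PBS replicate. Above the same level of mean expression, the largest falls outside the lists were in Kcng1, a potassium channel subunit, at 4.13, 5.45 and 8.80 CPM with PBS and at 0.795 and 0 CPM with IL-1β (-3.81 ± 0.81, adjusted p = 0.0262), Clec2f, a lectin (-3.74 ± 0.68, adjusted p = 0.013), and Sulf2, an extracellular sulfatase (-3.19 ± 0.62, adjusted p = 0.0168). Kcng1 reached the level of the count filter in fewer than 2 IL-1β libraries, so it was tested only because of the PBS libraries and could hardly have been called higher. Among abundant genes, Mthfd1, an enzyme of folate metabolism, and Prdx2, a peroxiredoxin abundant in red cells, fell by 0.57 ± 0.12 and 0.78 ± 0.15 on the log2 scale. These 5 falls were not called without either IL-1β library, nor were Kcng1 and Mthfd1 without PBS replicate 1 or 2, Sulf2 without PBS replicate 1 and Prdx2 without PBS replicate 2.

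The response of LK cells was compared with that of the 3 PBS and 2 IL-1β libraries of LSK cells (Lin-Sca1+c-kit+), the stem cell fraction sorted from mice of the same treatments, by the interaction of population and treatment. At an adjusted p under 0.05 the responses differed for 4 of 13839 genes, 0.0289%, and 24 genes passed when libraries of the same number were paired. With all libraries 1967 genes were at an unadjusted p under 0.05. The LSK libraries varied more than the LK libraries, with edgeR coefficients of variation of 0.377 and 0.183. The small number of calls therefore does not show that the responses were alike. Il18rap, a chain of the IL-18 receptor, was at 6.28, 5.60 and 8.80 CPM with PBS and at 40.7 and 22.9 CPM with IL-1β in LK cells, and at 58.6, 45.7 and 59.7 CPM and at 29.7 and 13.1 CPM in LSK cells (adjusted p of the difference 0.0479). Lax1 and Nfatc2, a calcium-regulated factor of lymphocytes, likewise had higher values with IL-1β in LK cells and lower ones in LSK cells (adjusted p = 0.0310 and 0.0163). Mt1, a metallothionein, was at 229, 194 and 188 CPM and at 276 and 279 CPM in LK cells, and at 30.3, 31.4 and 27.6 CPM and at 171 and 191 CPM in LSK cells (adjusted p = 0.0123). For other genes named above the difference did not pass the test, among them Mpo (-0.49 ± 0.41, adjusted p = 0.608), Lcn2 (-1.04 ± 0.55, adjusted p = 0.415), Irf8 (-0.06 ± 0.51, adjusted p = 0.971) and Gata1 (-1.23 ± 0.28, adjusted p = 0.129), given as the response in LK minus that in LSK cells on the log2 scale. Without IL-1β replicate 1, IL-1β replicate 2 or PBS replicate 2 the edgeR test passed 0 genes, with 907, 1364 and 1518 at an unadjusted p under 0.05, whereas DESeq2 on all libraries passed 324. Without PBS replicate 1 or 3 there were 2, of which Mt1 was the one shared.

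**Figure D5:**
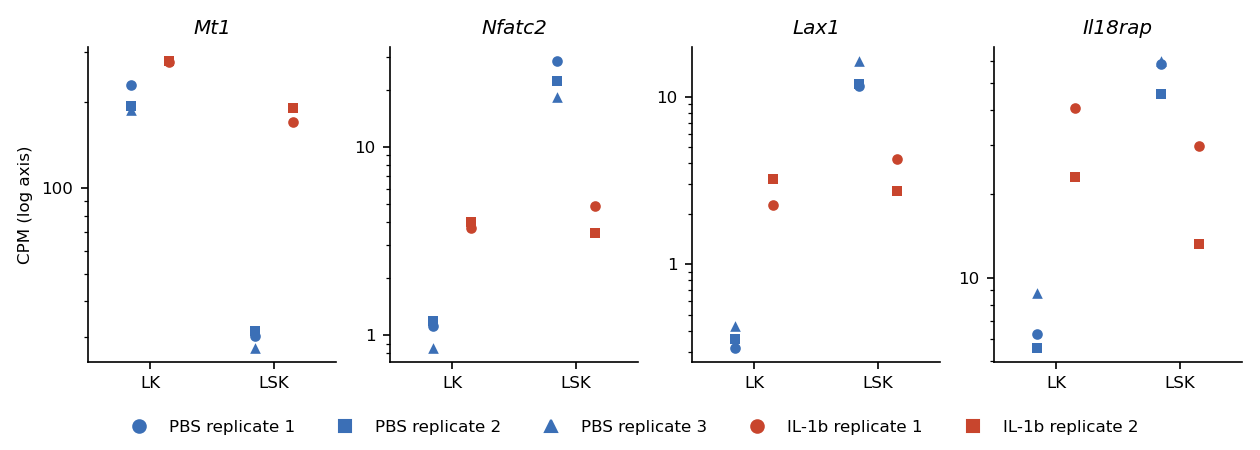
CPM on log axes of the 4 genes whose response differed between LK and LSK cells, for each PBS (blue) and IL-1β (red) library, with the symbol shape giving the replicate number. Nfatc2, Lax1 and Il18rap lie higher with IL-1β in LK cells and lower in LSK cells, while Mt1 lies higher in both, by more in LSK cells.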

How the data were processed

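Per the labels and the study's methods, RNA of sorted LK and LSK cells was depleted of ribosomal RNA and sequenced. The deposited table holds read counts per gene with gene lengths, a column in another unit that was not used; per the submitters' processing notes the authors used fastp 0.20.0, HISAT2 2.0.1, SAMtools 1.10 and featureCounts 2.0.2 on GRCm38, and DESeq2. Gene symbols were matched for 55141 of 55487 identifiers. A table of mesenchymal stromal cells was not used. Counts of the 5 LK libraries were filtered with filterByExpr (about 10 reads at the median depth in 2 libraries of any group), scaled by TMM and fitted with edgeR 4.0.16 (robust quasi-likelihood test, R 4.3.3), without a replicate block, and p-values were adjusted by Benjamini-Hochberg over all genes tested. Calls needed an adjusted p below 0.05 and a change beyond 0.5 on the log2 scale. The LK and LSK libraries entered 1 fit for the interaction. Alternatives were DESeq2 1.42.0, its size factors, other filters, thinning to equal totals, a replicate block and leaving out each library. In data simulated for the LK comparison, 84.9% of 192 genes changed by 2 on the log2 scale were recovered, with 10 false calls among 12437 genes tested. For the interaction 49.0% of 194 were recovered, with 4 false calls among 13417. Each gene was simulated on its own, without shifts shared by many genes of 1 library, so the false calls do not cover such shifts. Genes were named by a rule: the 10 largest rises and falls with a mean of at least 1 log2 CPM and no overlap, the 6 most abundant called genes in each direction, the first 2 tested members and the 4 called members of smallest p in each list, the genes of the interaction, and genes the study checked. Further list members were named as examples after their values were seen. The lists and members were chosen with earlier results of these data known. Deviations of same-numbered LK and LSK libraries from their group means had r = 0.129, 0.100 and 0.389 for PBS and 0.129 and 0.129 for IL-1β across genes. With 2 IL-1β libraries per population, the 2 IL-1β values are equal by construction. Libraries of different numbers were not correlated, so these values cannot decide whether the numbers pair the populations. The fit reported had no pairing, and pairing by number was an alternative. The labels do not say whether same-numbered libraries came from the same mice. Results on some genes are not reported here. Counting intervals and floors cover counting error only.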

Additional observations from a re-analysis of the deposited data

Results flagged for a closer look

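The response to IL-1β differed between LK and LSK cells for 4 genes by the edgeR interaction test, with differences (LK minus LSK, log2 scale) of 3.58 for Il18rap, 4.78 for Lax1, 4.34 for Nfatc2 and -2.12 for Mt1. In Il18rap, Lax1 and Nfatc2 the fitted changes had opposite signs in the 2 populations, and in Mt1 both were positive. None of these genes passed the interaction test without either IL-1β library of LK cells or without PBS replicate 2, and Mt1 alone passed without PBS replicate 1 or 3.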

How the results depend on the processing

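The number of calls in LK cells depended on single libraries. Leaving out 1 library at a time gave 61 to 1499 genes called higher and 5 to 910 called lower, against 869 and 330 with all libraries, and DESeq2 gave 1081 and 459. With no filter on low counts 693 genes were called lower. Within LK cells, libraries with a shared replicate number had r of -0.14 and 0.09 across genes, which cannot decide whether they pair. A replicate block gave 1462 genes higher and 869 lower. For the interaction with LSK cells DESeq2 passed 324 genes, the replicate block, with libraries of the same number paired, 24, no filter on low counts 398, and leaving out 1 LK library 0 to 2. Adjusted p-values that DESeq2 gave as missing were kept as missing. No gene called as reported was called in the opposite direction. Over the named genes and all alternatives, 1370 values kept their direction and side of the threshold, 256 lost the call, 33 gained it and 14 reversed. Reversals were seen in genes that did not pass the test as reported. With no filter Jak2 was at -0.00, and with the replicate block Tyrobp was at 0.09. Leaving out 1 library gave log2 fold changes of -0.12 to 0.36 for F13a1, -0.02 to 0.66 for Gata2, -0.03 to 0.07 for Jak2, -0.08 to 0.24 for Kit, -0.30 to 0.36 for Nfkbia, -0.55 to 0.45 for Tnfaip3 and -0.48 to 0.19 for Tyrobp. The cause of these shifts was not tested. The lower depth of the IL-1β libraries limits the precision of genes near 0 counts. After thinning to equal totals 899 genes were called higher and 375 lower.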

Other observations

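The following genes belong to none of the lists, were called in every alternative, and were chosen after their values were seen. Dgat2, an enzyme of triglyceride synthesis, had the smallest p of all genes and was at 2.15, 1.80 and 2.43 CPM with PBS and at 85.2 and 67.2 CPM with IL-1β (log2 fold change 5.17 ± 0.19 (SE), edgeR adjusted p = 2.5e-05). Sema4a, a semaphorin, was at 10.9, 11.4 and 14.4 CPM and at 122 and 90.6 CPM (3.12 ± 0.18, adjusted p = 2.6e-04). Hif1a, the oxygen-regulated factor, was at 26.6, 27.2 and 34.7 CPM and at 93.0 and 90.8 CPM (1.64 ± 0.14, adjusted p = 9.7e-04). Csf1, the ligand of Csf1r, was at 7.71, 6.89 and 6.87 CPM and at 40.3 and 26.8 CPM (2.23 ± 0.22, adjusted p = 0.00138), while Csf1r itself was lower. Myh10, a non-muscle myosin chain, was lower, at 146, 183 and 147 CPM with PBS and 55.4 and 45.9 CPM with IL-1β (-1.65 ± 0.15, adjusted p = 0.00107). In each of these genes the groups did not overlap, which adds little, since all were picked as called genes.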
